A study of Homo sapiens with 12 samples.

Results

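The cell proliferation genes are 52 genes that drive or mark the division of human cells, out of 17173 named genes with at least 10 counts over the 12 libraries of the series. They were chosen by gene symbol, as known cyclins, cyclin-dependent kinases, cell cycle transcription factors, replication enzymes and mitotic proteins, by a rule that uses none of their values but was set with earlier results of these data known, and all 52 were found. After knockdown (KD) of the long non-coding RNA linc-ADAIN in untreated cells, 21 of 51 tested genes were higher, against 12.1% of all genes tested. Most of the 21 were genes of DNA replication and mitosis, as are most of the 52. MYC, which encodes a transcription factor that promotes growth, was lower, as were 15.1% of all genes.

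PolyA RNA was sequenced from 14-day adipocytes made from ASC52telo hTERT, a line of human adipose-derived mesenchymal stem cells immortalised with telomerase reverse transcriptase. There were 4 groups with 3 libraries each. Cells carried either a scramble shRNA (scramble) or an shRNA against linc-ADAIN (KD), and each was left untreated or given lipopolysaccharide (LPS), a bacterial endotoxin, at 100 ng/mL for 4 h. All 4 groups shared the telomerase transgene, lentiviral infection with a pLVX-shRNA2 vector, sorting for the ZsGreen reporter it carries, and a differentiation cocktail of insulin, dexamethasone, isobutylmethylxanthine, rosiglitazone, pantothenate and biotin, followed by a maintenance medium that kept insulin, dexamethasone, pantothenate and biotin. The groups model adipocytes of a single immortalised line and a single hairpin against linc-ADAIN, and its own level was not analysed here, so the knockdown could not be checked in these libraries. The labels name no separate cultures for the libraries of a group. The paper lists its RNA sequencing of KD against scramble as a single experiment in triplicate. The p-values thus measure the spread between these libraries, which may be technical, and not the spread between independent experiments.

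A cell that divides copies its DNA in S phase and separates the copies in mitosis. D-type cyclins with CDK4 or CDK6, and then E-type cyclins with CDK2, phosphorylate the retinoblastoma protein and release E2F factors, which switch on the replication genes. Later, the B-MYB and FOXM1 factors switch on the mitotic genes, and CDK1 with B-type cyclins drives mitosis. Adipocyte precursors divide in culture until they are confluent, the differentiation cocktail induces a short wave of division, and mature adipocytes leave the cell cycle, so most of these genes are at low levels in differentiated cultures.

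The libraries held 28.4 to 53.8 M counts. Within a group, log2 levels of all genes correlated between libraries with r of 0.977 to 0.99. The first scramble library had the highest level of its group for 41 of the 52 genes. The first scramble library with LPS had it for 42. Results without them are therefore also given for the counts of called genes and for part of the genes. For the other genes such results are not given, and their calls may also change without these libraries. The labelled cell type was checked on 12 adipocyte markers. ADIPOQ, which encodes adiponectin, had 730 to 1140 CPM (counts scaled to the library size, the usual unit of gene level in RNA sequencing) in scramble without LPS and 141 to 517 CPM in KD, while lipoprotein lipase (LPL) and leptin (LEP) stayed at or below 2.37 and 0.492 CPM in every library. In the libraries labelled KD, 9 of the 12 adipocyte markers were lower without LPS and 10 with LPS (adjusted p under 0.05, edgeR's quasi-likelihood test). The paper reports the other direction in KD for PPARG, FABP4, PLIN1 and adiponectin, with higher mRNA by qPCR and higher protein by Western blot. The cause of this difference was not tested. Of the leukocyte and macrophage markers, PTPRC and LYZ were at or below 0.315 and 0.481 CPM in every library, CSF1R and CD14 at or below 1.47 and 3.04 CPM, and CD68, which other cells also express, at 23.8 to 67.9 CPM. Of the endothelial markers, CDH5 was at or below 0.0869 CPM, KDR at or below 3.92 CPM, VWF at 0.448 to 11.2 CPM, TEK at 2.26 to 9.84 CPM and PECAM1 at 2.84 to 7.81 CPM. CD163, a scavenger receptor best known from macrophages, was at 3.15 to 5.38 CPM in the scramble libraries and 54.5 to 81.8 CPM in the KD libraries. Of the 7 macrophage and leukocyte markers, 5 were tested in KD without LPS, with 1 called higher and 1 lower. With LPS 6 were tested, with 2 called higher and 1 lower. Of the 5 endothelial markers, 4 were tested in each, with 2 called lower without LPS, and 1 higher and 3 lower with LPS. Of all genes, 12.1% were called higher and 15.1% lower without LPS, and 12.7% and 14.2% with LPS.

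Levels per kilobase of the canonical transcript spanned more than 4 orders of magnitude. In scramble without LPS the highest were MYC with 111 CPM per kb, cyclin D1 (CCND1) with 99.1, CDK4 with 52.6, the sliding clamp PCNA with 17.2 and the securin PTTG1 with 16.1. Apart from PTTG1, the mitotic genes were lower, for example 8.08 CPM per kb for CCNB1, 3.05 for UBE2C, 2.7 for TOP2A, 0.815 for PLK1 and 0.287 for KIF20A. E2F2 with 0.0231 and cyclin D2 (CCND2) with 0.00904 CPM per kb were at the bottom. MYC, CCND1 and CDK4, which act in G1, were thus far above the mitotic genes per transcript length. This did not hold for all G1 genes, as CDC25A had 0.77 and CCNE2 0.505 CPM per kb.

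**Figure D1:**
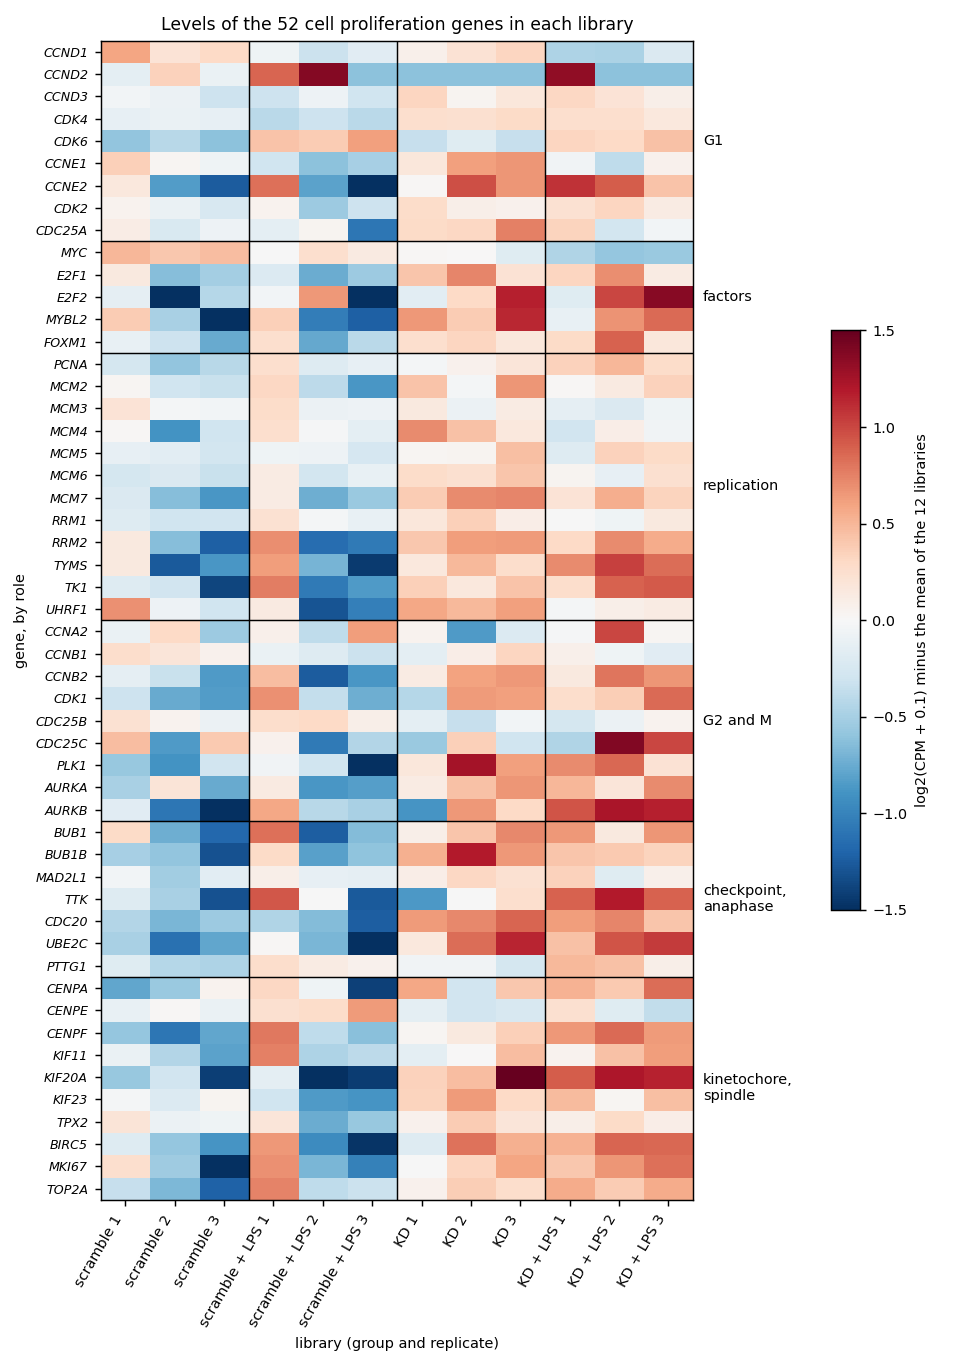
Heat map of the 52 genes (top to bottom, by role) in the 12 libraries (left to right), as log2(CPM + 0.1) minus the mean of the 12 libraries, with red for higher and blue for lower. Most genes are redder in the 6 KD libraries, MYC is bluer there, and the first scramble library of each treatment is redder than its group.

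The first comparison was of KD with scramble without LPS, on 6 libraries. Of the 51 genes tested, 21 were higher in KD and 1 (MYC) was lower (edgeR's quasi-likelihood test, Benjamini-Hochberg adjusted p under 0.05), and 29 did not pass. Over all 16217 genes tested, 12.1% were higher and 15.1% lower by the same rule. At least 2-fold higher were 8 of the 51, against 4.28% of all genes. The median log2 fold change was 0.58 over the 51 genes and 0.02 over all genes, and 44 of the 51 were positive. In bulk RNA, a larger share of dividing cells and more mRNA in each cell cannot be told apart. CCND2 was not tested, with 9 counts in these 6 libraries. Without the third scramble library, 13 genes passed, and without the first, 30.

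With LPS, 52 genes were tested. In KD 14 were higher, against 12.7% of all 15981 genes, and MYC alone was lower, against 14.2%. At least 2-fold higher were 7, against 4.58%, the median log2 fold change was 0.60 against 0.03 over all genes, and 44 of 52 were positive. This count rested on single libraries. Without the first scramble library with LPS, 33 genes passed and the median was 1.05, while without the second or the third scramble library with LPS, or the first or second KD library with LPS, 7 or 8 passed.

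No library enters both KD comparisons. Higher in both were 9 genes, namely CCND3, CDK4, PCNA, MCM7, PLK1, CDC20, UBE2C, KIF20A and KIF23, which is 42.9% of the 21 called without LPS and 64.3% of the 14 called with LPS. A positive fold change in both was seen for 41 genes. The same overlaps were not worked out over all genes, so this agreement is not shown to be particular to these genes.

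**Figure D2:**
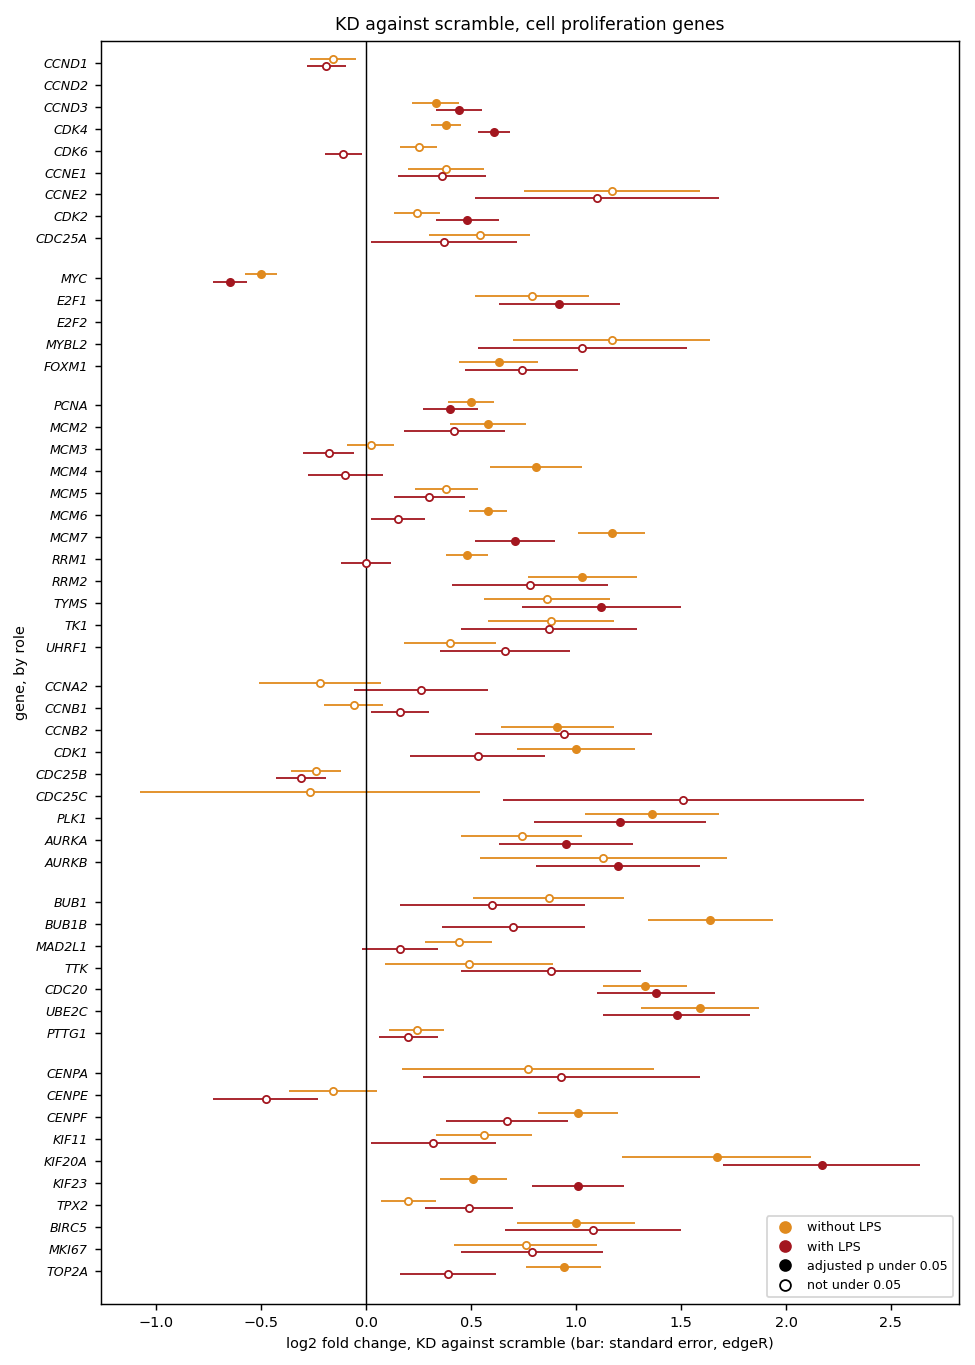
Log2 fold change of KD against scramble (horizontal axis) for each gene (vertical axis, by role) without LPS (orange) and with LPS (red), with standard errors, filled where the adjusted p is under 0.05. CCND2 and E2F2, with few counts, are not drawn, and the 3 mitotic and spindle groups at the bottom hold the largest rises, up to 2.17 for KIF20A with LPS.

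Among the 9 genes of G1, which carry the cell from growth signals to the start of S phase, 2 of 8 tested rose in KD without LPS and 3 of 9 with LPS. Over all genes, 12.1% were higher without LPS and 12.7% with LPS, and in groups this small single genes move the share much. CDK4, the kinase partner of the D-type cyclins, had 97.6, 99.2 and 97.5 CPM in scramble and 127, 125 and 130 CPM in KD. The groups did not overlap, and the log2 fold change was 0.38 ± 0.07 (SE, n = 3 libraries per group, edgeR adjusted p = 0.0017). With LPS it had 80.4, 85.7 and 80.0 CPM in scramble and 127, 127 and 119 CPM in KD, a log2 fold change of 0.61 ± 0.077 (SE, edgeR adjusted p = 4.8e-05). CDK4 was higher in KD in every alternative fit. Exons of TSPAN31 on the opposite strand overlap 57.8% of the bases of the CDK4 transcript. The library kit keeps the strand, but whether the counting used it is not given in the sources used here, so reads of this pair may be shared.

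Cyclin D3 (CCND3) had 33.4, 32.2 and 27.7 CPM in scramble and 42.9, 35.3 and 38.8 CPM in KD, a log2 fold change of 0.33 ± 0.11 (SE, edgeR adjusted p = 0.039). With LPS the values were 27.6, 32.6 and 27.9 CPM in scramble and 42.5, 39.7 and 36.6 CPM in KD, a log2 fold change of 0.44 ± 0.11 (SE, edgeR adjusted p = 0.007). The groups were apart in both settings, though without LPS the call was lost when the first or the third KD library or the second or the third scramble library was left out (adjusted p 0.077 to 0.16). Counting all alternatives, 5 fits lost this call. Cyclin D1, by contrast, overlapped between scramble (489, 373 and 397 CPM) and KD (340, 377 and 405 CPM), with an edgeR adjusted p of 0.29. CCND2 was nearly absent, with 0 to 10 counts in each of the 12 libraries. Of the D-type cyclins, CCND3 was thus the one that rose.

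CDK2, the partner of the E-type cyclins, was called with LPS only, with 24.5, 16.1 and 19.0 CPM in scramble and 27.6, 29.5 and 25.7 CPM in KD (log2 fold change 0.48 ± 0.15, SE, edgeR adjusted p = 0.027). Without LPS its log2 fold change was 0.24 ± 0.11 (SE, edgeR adjusted p = 0.14), and the interaction of KD with LPS, tested further on, was not called for it. The call with LPS was lost without the second or the third scramble library or the first or second KD library (adjusted p 0.061 to 0.1). Cyclin E1 (CCNE1), cyclin E2 (CCNE2) and the phosphatase CDC25A, which activates CDK2, had positive fold changes of 0.36 to 1.17 on the log2 scale in both settings with adjusted p of 0.056 to 0.51. CDK6 had 0.25 without LPS and -0.11 with LPS, neither of which passed.

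The 5 transcription factors held the exception. MYC had 423, 397 and 415 CPM in scramble and 304, 301 and 265 CPM in KD without LPS. Under LPS the values were 298, 357 and 330 CPM in scramble and 220, 200 and 204 CPM in KD. Every KD library was below every scramble library of the same treatment. The log2 fold change was -0.50 ± 0.076 without LPS (SE, edgeR adjusted p = 0.0004) and -0.65 ± 0.081 with LPS (SE, edgeR adjusted p = 4.1e-05), and it stayed between -0.71 and -0.40 in every alternative fit of both comparisons, each of them called. MYC was the only one of the 52 genes called lower in either KD comparison.

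FOXM1, the factor that activates mitotic genes, had 6.12, 5.34 and 3.90 CPM in scramble and 7.90, 8.33 and 7.49 CPM in KD (log2 fold change 0.63 ± 0.19, SE, edgeR adjusted p = 0.031). That call was lost in 5 of the 6 fits that left out a single library, all but the one without the first scramble library. With LPS it had 7.90, 3.85 and 5.00 CPM in scramble and 8.13, 12.3 and 7.45 CPM in KD, which overlapped (0.74 ± 0.27, SE, edgeR adjusted p = 0.063). It was called with LPS without the first scramble library (1.08, edgeR adjusted p = 0.0079) or the third KD library (0.87, edgeR adjusted p = 0.048). E2F1, which activates the replication genes, had 2.84, 1.92 and 2.23 CPM in scramble with LPS and 4.13, 5.40 and 3.60 CPM in KD with LPS (0.92 ± 0.29, SE, edgeR adjusted p = 0.032), a call lost without the second or the third scramble library or the first or second KD library (adjusted p 0.054 to 0.15). Among all alternatives, 5 fits lost that call. Without LPS the log2 fold change of E2F1 was 0.79 ± 0.27 (SE, edgeR adjusted p = 0.051), and 1.08 without the first scramble library (edgeR adjusted p = 0.018). MYBL2, which encodes B-MYB, had log2 fold changes of 1.17 and 1.03 (edgeR adjusted p = 0.086 and 0.16), and E2F2 was at or below 0.77 CPM in every library.

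Of the 12 genes of DNA replication and nucleotide supply, all 12 had positive fold changes in KD without LPS and 7 were called, while with LPS 10 were positive and 3 were called. Of all genes, 12.1% were called higher without LPS and 12.7% with LPS. The 6 MCM genes encode the subunits of the helicase that opens DNA at replication origins. MCM7 rose most, from 23.5, 17.6 and 14.9 CPM in scramble to 35.8, 44.7 and 45.5 CPM in KD, with no overlap (log2 fold change 1.17 ± 0.16, SE, edgeR adjusted p = 0.00017). MCM6 had 30.1, 31.1 and 28.5 CPM in scramble and 43.7, 42.5 and 48.0 CPM in KD (0.58 ± 0.09, SE, edgeR adjusted p = 0.00048). MCM4 (0.81 ± 0.22) and MCM2 (0.58 ± 0.18) were also called, with edgeR adjusted p of 0.018 and 0.033, although the call of MCM2 was lost without the first or the third KD library or the second or the third scramble library (adjusted p 0.079 to 0.13). MCM5 (0.38) and MCM3 (0.02) were not called, so the 6 subunits of the complex differed in size of change, and MCM3 had 38.1, 32.4 and 31.9 CPM in scramble against 36.5, 31.0 and 35.9 CPM in KD.

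With LPS, MCM7 had 29.9, 16.4 and 18.6 CPM in scramble and 31.6, 40 and 34.5 CPM in KD (0.71 ± 0.19, SE, edgeR adjusted p = 0.012). It was the only one of the 6 MCM genes called there. The log2 fold changes of the others ranged from -0.18 for MCM3 to 0.42 for MCM2, which was called without the first scramble library (0.81, edgeR adjusted p = 0.0081). The scramble libraries with LPS showed the highest MCM6 level of their group in the first library (39.2 CPM, against 29.7 and 33.4 CPM) and overlapped the KD libraries (37.1, 33.1 and 42.8 CPM).

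PCNA, the clamp that holds DNA polymerase on its template, rose in both settings. It had 24.4, 19.4 and 21.9 CPM in scramble and 28.8, 30.7 and 33.2 CPM in KD (0.50 ± 0.11, SE, edgeR adjusted p = 0.0058), and with LPS 34.8, 25.7 and 26.8 CPM in scramble and 37.4, 41.4 and 35.6 CPM in KD (0.40 ± 0.13, SE, edgeR adjusted p = 0.033). The call with LPS was lost without the second or the third scramble library or the first or second KD library (adjusted p 0.064 to 0.14). Ribonucleotide reductase makes deoxynucleotides. Its regulatory subunit RRM2 had 21.3, 12.3 and 8.16 CPM in scramble and 25.6, 29.8 and 30.1 CPM in KD (1.03 ± 0.26, SE, edgeR adjusted p = 0.01), and its large subunit RRM1 rose by 0.48 ± 0.099 (SE, edgeR adjusted p = 0.0036), with a difference of 0 with LPS. In the single fit of all 12 libraries the calls of RRM2, MCM2 and FOXM1 without LPS were lost (adjusted p of 0.051, 0.086 and 0.084).

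With LPS, RRM2 had 31.2, 8.69 and 9.16 CPM in scramble, where the first library stood far above the others, and 23.8, 31.6 and 28.5 CPM in KD. The log2 fold change was 0.78 ± 0.37 (SE, edgeR adjusted p = 0.15), and 1.66 without the first scramble library (edgeR adjusted p = 5e-06). TYMS, thymidylate synthase, was called with LPS, at 11.0, 4.34 and 2.56 CPM in scramble and 11.6, 14.5 and 12.7 CPM in KD (1.12 ± 0.38, SE, edgeR adjusted p = 0.044). DESeq2 did not call it (adjusted p = 0.16), nor did 5 of the 6 fits without a single library, all but the one without the first scramble library (adjusted p 0.067 to 0.14). Without LPS its log2 fold change was 0.86 (edgeR adjusted p = 0.055), and 1.39 without the first scramble library (edgeR adjusted p = 0.00089). Exons of ENOSF1 and TYMSOS on the opposite strand overlap 60% of the TYMS transcript. The kinase TK1 and the chromatin protein UHRF1 were higher in mean in KD in both settings, with log2 fold changes of 0.40 to 0.88, and did not pass.

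Genes that are switched on together in the cell cycle often share short promoter motifs. The cell cycle genes homology region (CHR, TTTGAA or TTCGAA) is bound by the MuvB proteins that work with B-MYB, CCAAT boxes by the factor NF-Y, and E2F sites by E2F factors. The E2F site was searched as TTCCCGC, as TTCGCGC, as TTGGCGC and also as TTGCCGC. These letters were searched on both strands in the RefSeq promoter windows of GRCh38.p14, from 250 bases before to 50 bases after each listed start, and a gene with several starts counted if any window matched. Windows were found for 39 of the 52 genes. Of the 21 G2, mitotic and spindle genes with a window, 15 (71.4%) held a CHR match and 14 (66.7%) both a CHR and a CCAAT match, against 19.5% and 9.02% of all 27305 genes in the table. Of the 10 replication genes with a window, 10 (100.0%) held an E2F match, against 15.3% of all genes, and 2 held a CHR match. Among these mitotic genes with a window, a CHR match was held by 8 of the 9 called higher in KD without LPS and by 7 of the 12 not called higher. UBE2C and BIRC5 were also called but had no window. A match is a string of letters and not a measured binding site, short motifs occur by base composition, and no binding was measured here.

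The windows below are shown because their genes were called higher in KD without LPS and stand for the kinds of motif content seen. Capitals mark CHR, CCAAT and E2F matches, and each sequence is written 5′ to 3′ on the strand of its gene. CCNB2 (chr15:59104896-59105195, plus strand) holds 4 CCAAT matches, at 244, 120, 87 and 54 bases before the start, and a CHR match at 29 bases. PLK1 (chr16:23678639-23678938, plus) has a CHR match at the same 29 bases and 1 CCAAT match. CDC20 (chr1:43358731-43359030, plus) has 2 of each. KIF20A (chr5:138178862-138179161, plus) has 2 CCAAT matches and no CHR match. MCM6 (chr2:135876394-135876693, minus) has 4 E2F matches that overlap in pairs, 2 CCAAT matches and a CHR match at 246 bases. MCM7 (chr7:100101348-100101647, minus; the first of its 3 listed starts) has 3 E2F and 3 CCAAT matches, and the last E2F and CCAAT matches share letters.
CCNB2: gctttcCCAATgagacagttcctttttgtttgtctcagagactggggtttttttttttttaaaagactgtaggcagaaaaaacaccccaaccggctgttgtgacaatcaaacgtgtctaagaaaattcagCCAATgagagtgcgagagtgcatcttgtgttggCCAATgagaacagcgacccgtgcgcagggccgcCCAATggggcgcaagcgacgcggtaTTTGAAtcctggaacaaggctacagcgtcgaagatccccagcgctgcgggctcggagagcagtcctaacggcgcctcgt
PLK1: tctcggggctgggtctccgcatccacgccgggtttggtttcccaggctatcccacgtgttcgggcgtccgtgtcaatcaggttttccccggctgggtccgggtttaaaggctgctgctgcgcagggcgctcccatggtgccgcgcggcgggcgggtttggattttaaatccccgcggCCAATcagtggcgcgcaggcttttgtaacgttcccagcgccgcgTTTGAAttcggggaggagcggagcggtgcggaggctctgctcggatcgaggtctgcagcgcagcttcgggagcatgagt
CDC20: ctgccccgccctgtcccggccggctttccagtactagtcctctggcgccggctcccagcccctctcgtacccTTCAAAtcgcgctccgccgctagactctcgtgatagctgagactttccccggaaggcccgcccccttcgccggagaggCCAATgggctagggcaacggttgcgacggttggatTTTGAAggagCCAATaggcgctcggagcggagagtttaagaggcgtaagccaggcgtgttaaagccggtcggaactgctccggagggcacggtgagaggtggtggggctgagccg
KIF20A: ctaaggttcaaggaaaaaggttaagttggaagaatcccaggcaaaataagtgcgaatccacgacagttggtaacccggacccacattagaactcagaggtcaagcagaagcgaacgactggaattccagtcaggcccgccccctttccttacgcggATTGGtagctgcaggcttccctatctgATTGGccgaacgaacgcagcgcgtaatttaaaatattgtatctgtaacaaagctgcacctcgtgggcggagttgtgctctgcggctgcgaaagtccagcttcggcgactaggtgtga
MCM6: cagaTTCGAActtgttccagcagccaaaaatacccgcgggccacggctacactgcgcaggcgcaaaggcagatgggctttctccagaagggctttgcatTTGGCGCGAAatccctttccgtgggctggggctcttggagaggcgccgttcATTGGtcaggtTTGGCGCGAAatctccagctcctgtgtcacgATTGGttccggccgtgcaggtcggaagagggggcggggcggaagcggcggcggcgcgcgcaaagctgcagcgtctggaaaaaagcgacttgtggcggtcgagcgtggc
MCM7: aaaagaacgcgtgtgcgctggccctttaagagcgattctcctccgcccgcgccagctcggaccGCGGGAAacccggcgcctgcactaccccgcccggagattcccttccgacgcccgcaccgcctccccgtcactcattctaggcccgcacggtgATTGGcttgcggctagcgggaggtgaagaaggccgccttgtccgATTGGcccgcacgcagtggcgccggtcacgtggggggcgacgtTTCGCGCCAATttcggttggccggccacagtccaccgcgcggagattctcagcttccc

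**Figure D3:**
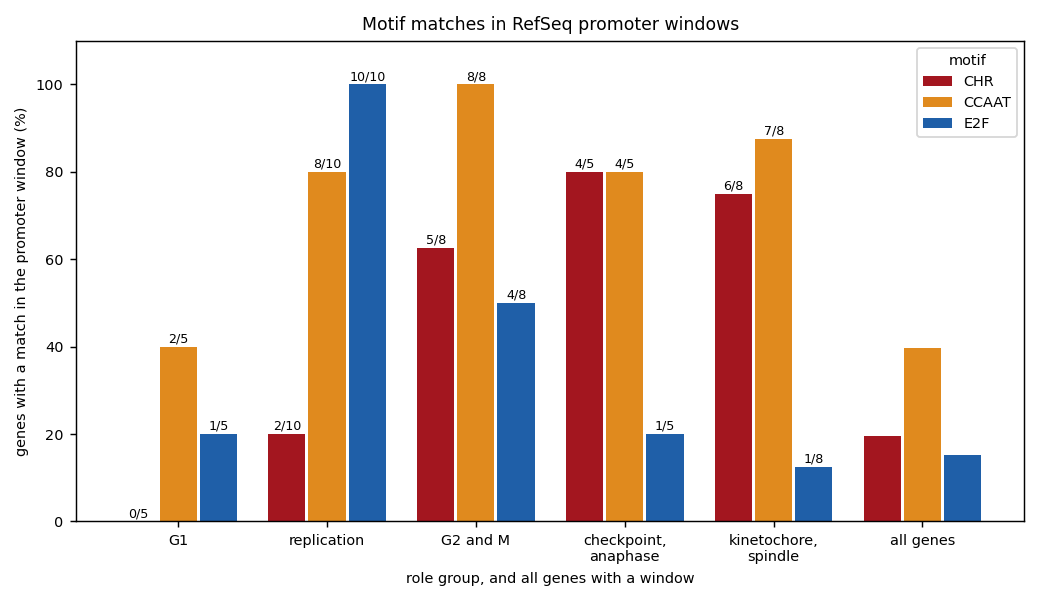
Percentage of genes (vertical axis) with a CHR, CCAAT or E2F match in a promoter window, for 5 role groups and for all 27305 genes of the table (horizontal axis), with the number of genes over the number with a window above the bars. E2F bars stand highest in the replication genes (10 of 10) and CHR bars in the checkpoint and spindle groups (4 of 5 and 6 of 8).

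The 9 genes of the G2 and M cyclins, kinases and phosphatases drive entry into mitosis. In KD 3 of them were called higher without LPS and 3 with LPS, beside 12.1% and 12.7% of all genes. PLK1, the polo-like kinase, whose window is printed above, had 1.75, 1.37 and 2.15 CPM in scramble and 2.98, 6.41 and 4.09 CPM in KD (log2 fold change 1.36 ± 0.32, SE, edgeR adjusted p = 0.0073). In the LPS libraries it had 2.53, 2.12 and 0.728 CPM in scramble and 4.39, 4.86 and 3.08 CPM in KD (1.21 ± 0.41, SE, edgeR adjusted p = 0.045). No KD library overlapped a scramble library in either setting, and with LPS the call was lost without the second or the third scramble library or the first or second KD library (adjusted p 0.062 to 0.15).

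CDK1, the kinase that drives mitosis, had 5.06, 3.67 and 3.47 CPM in scramble and 4.66, 9.87 and 9.67 CPM in KD. The first KD library lay within the scramble range, and the log2 fold change was 1.00 ± 0.28 (SE, edgeR adjusted p = 0.019), or 0.82 to 0.93 with adjusted p of 0.073 to 0.083 without the second or the third library of either group. With LPS the scramble values were 10.2, 4.87 and 3.73 CPM and the KD values 7.56, 8.13 and 11.4 CPM (0.53 ± 0.32, SE, edgeR adjusted p = 0.25), and without the first scramble library the difference was called (1.08, edgeR adjusted p = 0.0057).

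The cyclins that bind CDK1 differed among themselves. Cyclin B2 (CCNB2) rose without LPS, from 2.79, 2.41 and 1.66 CPM in scramble to 3.33, 4.69 and 4.85 CPM in KD (0.91 ± 0.27, SE, edgeR adjusted p = 0.027), and had 0.94 ± 0.42 with LPS (edgeR adjusted p = 0.12). Cyclin B1 (CCNB1) had 17.5, 16.5 and 15.2 CPM in scramble and 13.1, 15.6 and 18.3 CPM in KD, a log2 fold change of -0.06 ± 0.14 (SE, edgeR adjusted p = 0.8). Cyclin A2 (CCNA2) had -0.22 and 0.26 in the 2 settings and was not called in either. Of the Aurora kinases, AURKA (0.95 ± 0.32) and AURKB (1.20 ± 0.39) were called with LPS, with edgeR adjusted p of 0.046 and 0.037. AURKB had 2.02, 0.962 and 0.916 CPM in scramble with LPS and 2.63, 3.22 and 3.08 CPM in KD with LPS, and its call was lost in 5 of the 6 fits without a single library, all but the one without the first scramble library (adjusted p 0.055 to 0.13). Over all alternatives, 6 fits lost the AURKB call. The CDK1-activating phosphatase CDC25B had -0.24 and -0.31 without a call, and CDC25C was at or below 1.17 CPM in every library.

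The 7 genes of the spindle checkpoint and of anaphase all had positive fold changes in both settings, with 3 called without LPS and 2 with LPS. Beside these stand 12.1% and 12.7% of all genes called higher. CDC20, which activates the anaphase-promoting complex and lies on chromosome 1 of GRCh38 from 43358981 to 43363203, had 2.81, 2.36 and 2.60 CPM in scramble and 6.02, 6.39 and 7.13 CPM in KD. With LPS it had 2.79, 2.42 and 1.57 CPM in scramble and 5.97, 6.44 and 5.14 CPM in KD. Its lowest KD library was at 5.14 CPM and its highest scramble library at 2.81 CPM. The log2 fold changes were 1.33 ± 0.20 (SE, edgeR adjusted p = 0.00038) and 1.38 ± 0.28 (SE, edgeR adjusted p = 0.002), and they stayed called in every alternative fit, between 1.18 and 1.57.

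UBE2C, the ubiquitin-conjugating enzyme of the same complex, had 2.91, 1.84 and 2.35 CPM in scramble and 4.6, 7.40 and 9.21 CPM in KD (1.59 ± 0.28, SE, edgeR adjusted p = 0.0012). With LPS the levels were 4.17, 2.52 and 1.36 CPM in scramble and 5.63, 8 and 8.64 CPM in KD (1.48 ± 0.35, SE, edgeR adjusted p = 0.0059). It too was called in every alternative fit of both comparisons. BUB1B, the checkpoint protein BubR1, had 1.88, 1.75 and 1.03 CPM in scramble and 3.94, 6.26 and 4.29 CPM in KD (1.64 ± 0.30, SE, edgeR adjusted p = 0.0016), while with LPS the difference was 0.70 ± 0.34 (SE, edgeR adjusted p = 0.16). The checkpoint genes BUB1, MAD2L1 and TTK and the securin PTTG1 had log2 fold changes of 0.16 to 0.88 and were not called. CDC20 and UBE2C, the genes of this group called in both settings, act with the anaphase-promoting complex.

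The last group holds 10 genes of the kinetochore, spindle, chromosome and cytokinesis, of which 5 were called without LPS and 2 with LPS. The shares of all genes called higher were 12.1% and 12.7%. KIF20A, a kinesin of the midzone, had the largest fold change of the called genes. It had 0.969, 1.20 and 0.495 CPM in scramble and 1.91, 2.09 and 4.48 CPM in KD (1.67 ± 0.45, SE, edgeR adjusted p = 0.015). The third KD library was more than double the others, and without it the fold change was 1.17 (edgeR adjusted p = 0.097), as without the third scramble library it was 1.38 (edgeR adjusted p = 0.057). With LPS it had 1.33, 0.365 and 0.493 CPM in scramble and 2.89, 3.58 and 3.43 CPM in KD (2.17 ± 0.47, SE, edgeR adjusted p = 0.0036), and there it was called in every alternative fit.

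KIF23, a kinesin needed for cytokinesis, had 7.64, 6.74 and 7.99 CPM in scramble and 9.87, 12.2 and 9.58 CPM in KD (0.51 ± 0.16, SE, edgeR adjusted p = 0.03). In the LPS libraries it stood at 6.32, 4.28 and 4.16 CPM in scramble and 10.9, 7.98 and 10.7 CPM in KD (1.01 ± 0.22, SE, edgeR adjusted p = 0.0037). Topoisomerase TOP2A, which untangles sister chromatids, had 19.7, 15.7 and 10.8 CPM in scramble and 26.3, 32.3 and 30.0 CPM in KD (0.94 ± 0.18, SE, edgeR adjusted p = 0.002). With LPS its first scramble library stood at 42.0 CPM, above every KD library (36.9, 32.6 and 36.8 CPM), and the others at 19.3 and 20.1 CPM, so that the difference was 0.39 ± 0.23 (SE, edgeR adjusted p = 0.25) with that library and 0.86 without it (edgeR adjusted p = 0.00015).

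MKI67, which encodes the proliferation marker Ki-67, was not called in either comparison. It had 10.8, 6.21 and 3.08 CPM in scramble and 9.00, 11.3 and 13.7 CPM in KD (0.76 ± 0.34, SE, edgeR adjusted p = 0.12), and with LPS 14.6, 5.60 and 4.41 CPM in scramble and 12, 14.4 and 16.1 CPM in KD (0.79 ± 0.34, SE, edgeR adjusted p = 0.11). Without the first scramble library the differences were 1.29 (edgeR adjusted p = 0.0075) and 1.51 (edgeR adjusted p = 8.9e-05), and with no filter on low counts it passed in both (edgeR adjusted p = 0.041 and 0.017). The centromere gene CENPF (1.01 ± 0.19) and survivin (BIRC5, 1.00 ± 0.28) were called without LPS, with edgeR adjusted p of 0.0021 and 0.019. CENPA, KIF11 and TPX2 had positive fold changes of 0.20 to 0.93, CENPE had -0.16 and -0.48, and none of these passed.

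**Figure D4:**
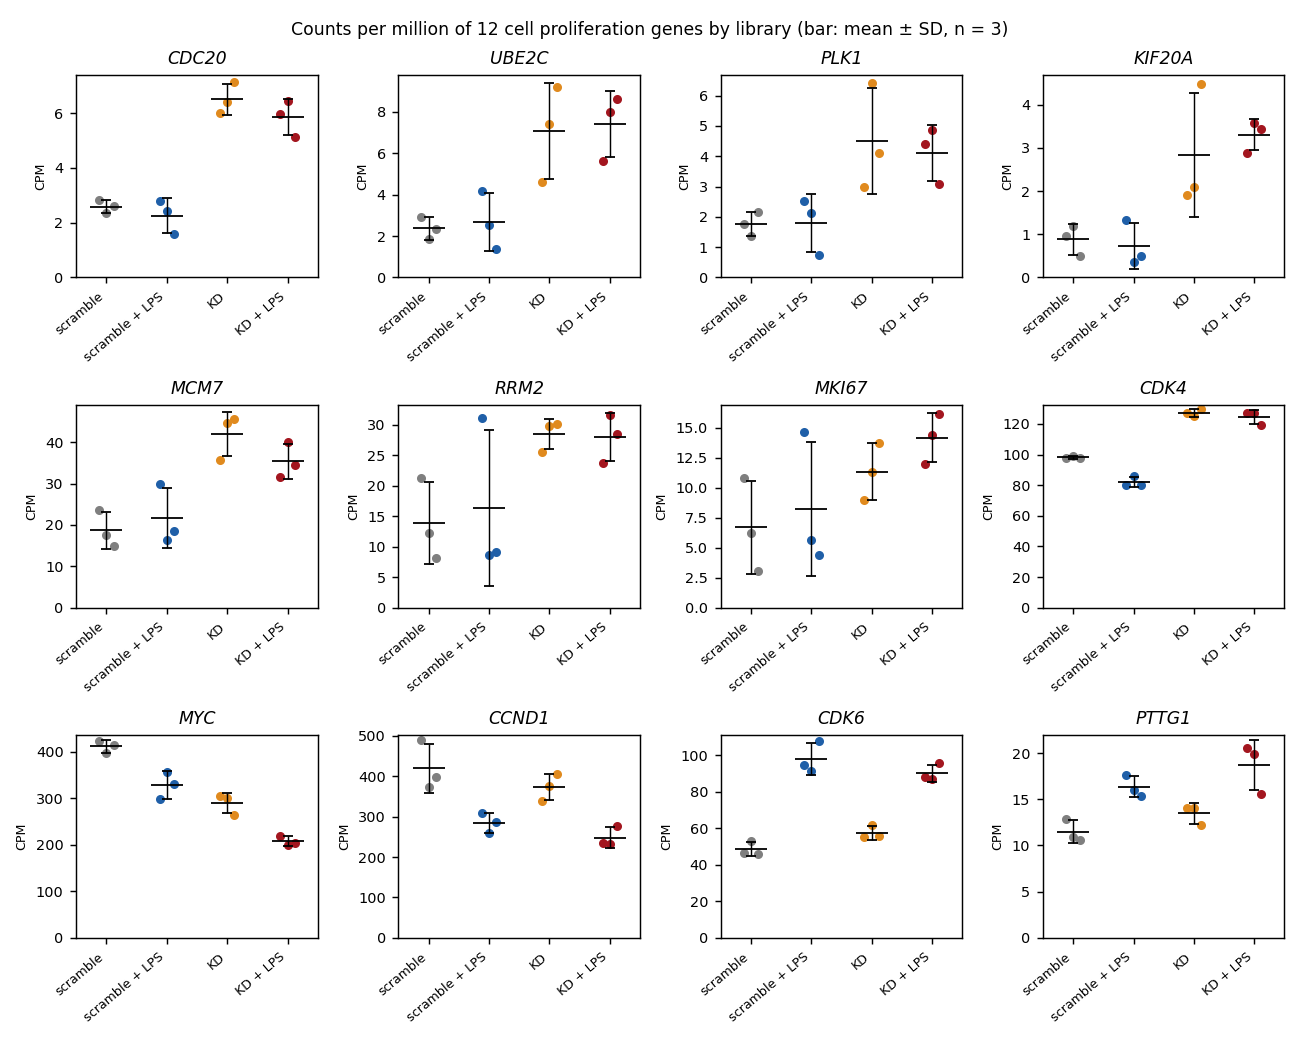
CPM (vertical axes, from 0) of 12 of the genes in each library by group (horizontal axes), with the mean ± SD of 3 libraries in black. CDC20, UBE2C, PLK1, KIF20A and CDK4 separate KD from scramble in both treatments, MKI67 and RRM2 show the high first scramble libraries, and CCND1 and CDK6 follow LPS.

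Summed over the 26 genes of the last 3 groups, the level was 173, 145 and 129 CPM in scramble and 183, 222 and 228 CPM in KD, and with LPS 236, 147 and 141 CPM in scramble and 230, 240 and 241 CPM in KD. In the same libraries the 12 adipocyte markers summed to 3620 to 4940 CPM in scramble and 781 to 2150 CPM in KD, and with LPS to 4150 to 4930 CPM in scramble and 639 to 1380 CPM in KD. In each of the 4 groups the library with the highest mitotic sum had the lowest adipocyte sum, at 3620, 4150, 781 and 639 CPM. In KD with LPS, however, the mitotic sums of 240 and 241 CPM were nearly equal, so the highest library there hardly stands out. The 10 stromal markers summed to 5690 to 7380 CPM over the scramble libraries and 8310 to 10500 CPM over the KD libraries, with 4 of the 9 tested called higher (among them DPP4 and DCN) and 3 lower (THY1, ENG and PDGFRB) in each KD comparison. The part of the adipocyte and stromal levels in the changes of the cell proliferation genes was not tested.

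**Figure D5:**
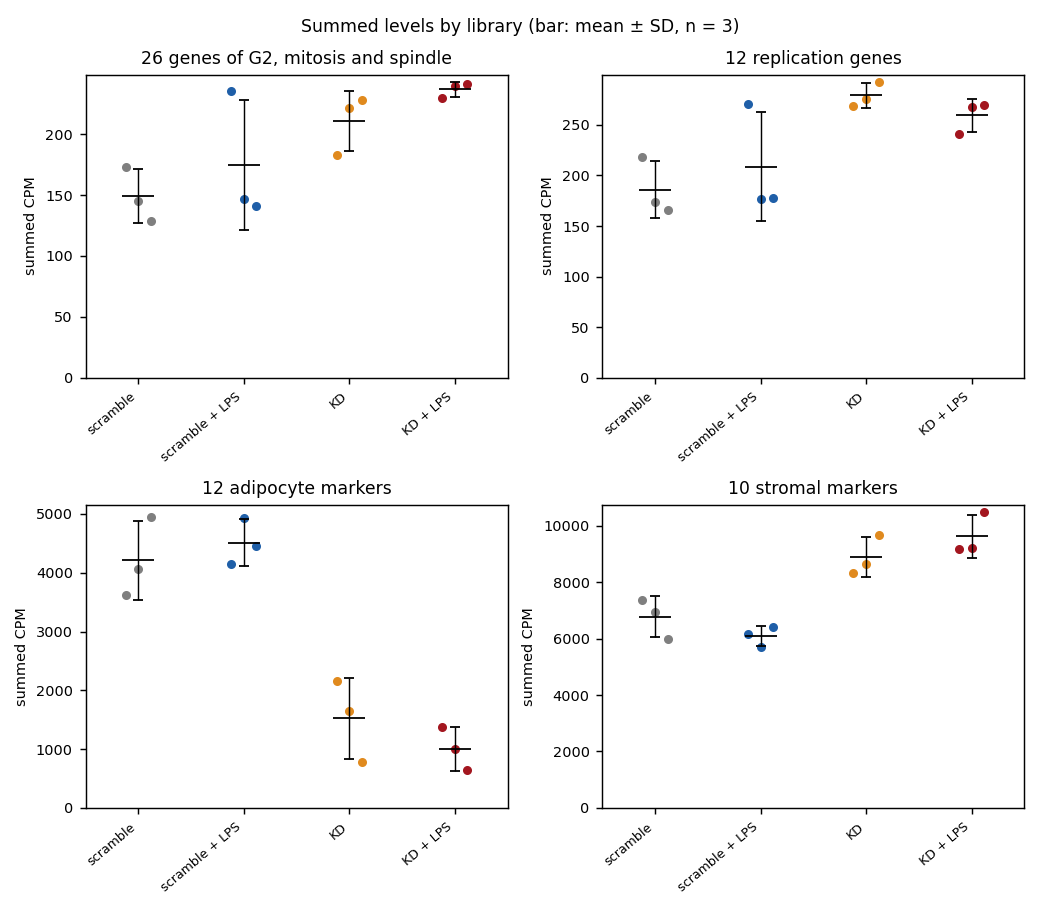
Summed CPM (vertical axes, from 0) in each library by group (horizontal axes), with mean ± SD of 3 libraries, for the 26 mitotic genes, the 12 replication genes, 12 adipocyte markers and 10 stromal markers. The mitotic sum is 183 to 241 CPM in the KD libraries and 129 to 236 CPM in scramble, where the first library with LPS is the highest, and the adipocyte sum is lower in every KD library.

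The response to LPS was compared within each shRNA. In scramble 2 of the 52 genes rose and 4 fell, against 5.9% higher and 8.38% lower of all 15920 genes, and in KD 5 rose and 3 fell, against 5.32% and 6.03% of all 16169 genes. The shares of the 52 genes were thus near those of all genes. The median log2 fold change was 0.20 in scramble, but -0.25 without the first scramble library with LPS, and 0.08 in KD, but -0.07 without the first KD library.

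Of the 6 calls in scramble 4 were G1 genes, and of the 8 in KD 2 were. CDK6 rose from 46.7, 52.9 and 46.1 CPM to 94.7, 91.6 and 108 CPM with LPS in scramble (1.02 ± 0.09, SE, edgeR adjusted p = 1.8e-05) and from 55.2, 62.1 and 55.6 CPM to 88.0, 86.9 and 95.6 CPM in KD (0.65 ± 0.087, SE, edgeR adjusted p = 0.00014). CCND1 fell from 489, 373 and 397 CPM to 308, 259 and 287 CPM in scramble (-0.55 ± 0.11, SE, edgeR adjusted p = 0.005) and from 340, 377 and 405 CPM to 234, 233 and 278 CPM in KD (-0.58 ± 0.09, SE, edgeR adjusted p = 0.00052). MYC, with the values above, fell by 0.32 on the log2 scale in scramble (SE 0.081, edgeR adjusted p = 0.022) and by 0.47 in KD (SE 0.076, edgeR adjusted p = 0.0007). CDK6 thus rose and CCND1 and MYC fell with LPS under both shRNAs, with no overlap between treated and untreated libraries. The CDK6 and CCND1 calls, and that of MYC in KD, held in every alternative fit, and the call of MYC in scramble was lost in 5 of the 6 fits without a single library, all but the one without the second scramble library with LPS (adjusted p 0.053 to 0.075). Counting all alternatives, 6 fits lost the MYC call in scramble.

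PTTG1 rose with LPS, from 12.9, 10.9 and 10.6 CPM to 17.6, 16.0 and 15.4 CPM in scramble (0.52 ± 0.13, SE, edgeR adjusted p = 0.016) and from 14.1, 14.1 and 12.2 CPM to 20.6, 19.9 and 15.6 CPM in KD (0.48 ± 0.14, SE, edgeR adjusted p = 0.043). CDK4 (-0.25 ± 0.07) and CCNE1 (-0.58 ± 0.18) were lower with LPS in scramble, with edgeR adjusted p of 0.035 and 0.0495. In KD, TTK (1.16 ± 0.31), TYMS (0.56 ± 0.16) and CENPF (0.55 ± 0.16) were higher and UHRF1 (-0.50 ± 0.15) lower, with edgeR adjusted p of 0.025 to 0.045. Each of these 6 calls was lost in 4 or more of its 6 fits without a single library (adjusted p up to 0.22), and those of PTTG1 were lost in scramble without the second or the third untreated library or the first with LPS (adjusted p 0.05 to 0.082), and in KD in every such fit but the one without the third library with LPS. Over all alternatives, 6 fits lost the PTTG1 call in KD. Under the other shRNA most of the other 6 genes changed in the same direction without a call. In KD, CCNE1 had -0.61 and CDK4 -0.03 (edgeR adjusted p = 0.06 and 0.895). In scramble, CENPF had 0.89, TTK 0.78, TYMS 0.31 and UHRF1 -0.75 (edgeR adjusted p of 0.097 to 0.74). The other members had adjusted p over 0.05 in both comparisons, among them TOP2A (0.83 ± 0.28 in scramble, edgeR adjusted p = 0.076).

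Whether the KD effect differed with LPS was tested as an interaction on the 12 libraries. None of the 52 genes was called by edgeR or by DESeq2, against 1.28% of all 17173 genes in edgeR (219 genes), and the smallest adjusted p was 0.19, for RRM1. At an unadjusted p under 0.05 there were 5 genes by edgeR and 5 by DESeq2, the same ones, namely CDK4, CDK6, MCM4, MCM6 and RRM1, beside 1907 of all 17173 genes by edgeR, so the count over the 52 genes is no larger a share than over all genes. Their interaction terms ranged from -0.91 ± 0.31 for MCM4 to 0.24 ± 0.095 for CDK4 on the log2 scale (SE, edgeR adjusted p = 0.2 and 0.34), and none passed. A gene called in only 1 of the KD comparisons is therefore not shown to respond differently with LPS. Likewise, a gene called in only 1 of the LPS comparisons is not shown to respond differently under KD.

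Other genes of the cell cycle that are not among the 52 were read in the same fits. Of 42 further genes of the mitotic apparatus, 13 were higher and 2 lower in KD without LPS, beside 12.1% and 15.1% of all genes, and 13 were higher and 1 lower with LPS, beside 12.7% and 14.2%. Among called genes whose libraries averaged 50 counts or more, the largest rises without LPS were those of DLGAP5, a spindle protein (1.63 ± 0.34, SE, edgeR adjusted p = 0.0039), and the kinesin KIF14 (1.43 ± 0.42, SE, edgeR adjusted p = 0.025). With LPS, by the same limit, they were those of DEPDC1 (1.46 ± 0.31, SE, edgeR adjusted p = 0.0033) and ANLN, anillin of the contractile ring (1.39 ± 0.35, SE, edgeR adjusted p = 0.0085). Below that limit, TROAP had 1.70 without LPS and KIF14 2.14 with LPS, both called (edgeR adjusted p = 0.024 and 0.0083). CKAP2, a spindle protein, was lower in both (-0.55 and -0.88, edgeR adjusted p = 0.0098 and 0.0022), and the condensin subunit SMC4 without LPS (-0.31, edgeR adjusted p = 0.014). Of 28 genes of origin licensing and replication, 11 were higher and 1 lower without LPS, beside 12.1% and 15.1% of all genes, and 3 were higher with LPS, no larger a share than the 12.7% of all genes. CDC45, a part of the active helicase, rose most without LPS (1.60 ± 0.45, SE, edgeR adjusted p = 0.019), followed by the checkpoint mediator CLSPN (1.32 ± 0.30, SE, edgeR adjusted p = 0.0066), and DBF4, the activator of the CDC7 kinase, was lower (-0.28, edgeR adjusted p = 0.041). CDC6, which loads the MCM helicase, rose by 1.10 and 1.08 (edgeR adjusted p = 0.03 and 0.026), and DUT, a dUTPase, by 0.56 and 0.59 (edgeR adjusted p = 0.00028 and 0.00021). The medians of the mitotic list were 0.83 and 0.92, beside 0.02 and 0.03 over all genes.

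Of 8 CDK inhibitors, which act as brakes on the cycle, 1 was higher and 1 lower in KD without LPS, about the share of all genes (12.1% higher and 15.1% lower). With LPS 3 were higher and 2 lower, beside 12.7% and 14.2% of all genes. CDKN1A, which encodes p21, had 108, 119 and 106 CPM in scramble and 158, 127 and 123 CPM in KD (0.30 ± 0.10, SE, edgeR adjusted p = 0.043), and with LPS 51.8, 76.3 and 68.3 CPM in scramble and 121, 119 and 110 CPM in KD (0.85 ± 0.12, SE, edgeR adjusted p = 0.00012). CDKN2C, which encodes p18, was lower, with 28.9, 30.8 and 28.9 CPM in scramble and 23.3, 18.8 and 12.7 CPM in KD (-0.69 ± 0.17, SE, edgeR adjusted p = 0.01) and -0.92 with LPS (edgeR adjusted p = 0.00019). CDKN1B (p27) and CDKN2D (p19) were higher with LPS, by 0.52 and 1.41 (edgeR adjusted p = 0.028 and 0.014), and CDKN1C, CDKN2A and CDKN3 were not called in either. CDKN2B, which encodes p15, rose with LPS by 1.70 ± 0.14 in scramble (SE, edgeR adjusted p = 1.1e-05) and by 0.88 ± 0.18 in KD (SE, edgeR adjusted p = 0.0044), and with LPS it was lower in KD than in scramble (-0.82, edgeR adjusted p = 0.00011).

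WEE1, the kinase that keeps CDK1 inactive, had 7.39, 6.82 and 7.36 CPM in scramble and 14.7, 18 and 20.2 CPM in KD (1.30 ± 0.15, SE, edgeR adjusted p = 4.3e-05), and 1.53 ± 0.24 with LPS (SE, edgeR adjusted p = 0.00027). Its relative PKMYT1 was called with LPS (1.62 ± 0.46, SE, edgeR adjusted p = 0.019) and had 0.73 without (edgeR adjusted p = 0.22).

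Of 12 pocket proteins and factors of the E2F repressor complexes, 3 were lower without LPS, beside 15.1% of all genes, and 3 were lower and 1 higher with LPS, beside 14.2% and 12.7% of all genes. RB1, the retinoblastoma protein, had 39.9, 35.5 and 32.8 CPM in scramble and 19.5, 25.7 and 23.0 CPM in KD (-0.66 ± 0.12, SE, edgeR adjusted p = 0.0014), and -0.41 with LPS (edgeR adjusted p = 0.018). The E2F partners TFDP1 and TFDP2 were lower by 0.67 and 0.50 on the log2 scale without LPS and by 0.60 and 0.77 with LPS (edgeR adjusted p of 0.00016 to 0.0012). RBL1, which encodes p107 and is itself an E2F target, was higher with LPS (0.59, edgeR adjusted p = 0.027), and RBL2, E2F4, E2F5, E2F6, LIN9, LIN37, LIN52 and LIN54 had log2 fold changes between -0.20 and 0.41 and were not called.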

How the data were processed

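RNA was read from 12 libraries in 4 groups of 3. The authors demultiplexed with bcl2fastq 2.19 and deposited estimated counts per gene name from kallisto 0.44.0, all whole numbers, and their notes also name DESeq2 1.32.0. The annotation behind the index is not given in the sources used here. The 52 genes and the lists were chosen with earlier results of these data known. Genes with at least 10 counts in the libraries of a fit were tested with edgeR 4.0.16 in R 4.3.3 (TMM scaling, quasi-likelihood F test, Benjamini-Hochberg adjustment over all genes tested, called under 0.05), each comparison on its 6 libraries and the interaction on 12. CPM used TMM factors over the 12 libraries. The code was tested on simulated data. Alternatives were DESeq2 1.42.0, other scaling and filters, the replicate number as a block, one fit of 12 libraries, and each library left out. Named with values per library were 18 anchor genes and, per comparison, the 6 called members that rose most and the 6 that fell most at a mean of at least 50 counts. From other lists, up to 2 such genes per direction were named, and all other values were chosen after they were seen. Promoter windows came from RefSeq (GRCh38.p14), and transcript lengths and positions from GENCODE on GRCh38. At 28.4 to 53.8 M counts per library, a gene at 1 CPM rests on about 28.4 to 53.8 counts, so values below that are imprecise from counting alone. No columns were left out.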

Additional observations from a re-analysis of the deposited data

How the results depend on the processing

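Of 87 values of single genes, 35 kept their direction and side of the threshold under every alternative, and of 41 called ones 20 did. Scaling by library size alone moved the median log2 fold change of all genes without LPS to 0.13, and of the 52 genes to 0.69. In KD against scramble, leaving out single libraries gave 13 to 30 called genes without LPS and 7 to 33 with LPS, with medians of 0.52 to 0.75 and 0.46 to 1.05. For LPS in scramble, the count was 10 with DESeq2, 10 in one fit of 12 libraries and 2 to 6 without single libraries. The median ranged from -0.25 to 0.31 there, and was -0.04 without both first scramble libraries, a choice made after seeing the data, when CCND3 had 0.02, FOXM1 -0.05 and RRM2 -0.19. For LPS in KD, the count was 5 in one fit and 3 to 6 without single libraries, with medians of -0.07 to 0.15. By library size alone, CCNB1 was 0.05 in KD without LPS and CCND3 -0.02 for LPS in KD.

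Deviations of same-numbered libraries from their group means correlated with r of 0.25, 0.07 and 0.05 between scramble without and with LPS. In the other comparisons r was -0.1 to 0.16. Whether same-numbered libraries share more than a number cannot be told from these values. With the replicate block, 20 and 17 genes were called in KD against scramble without and with LPS, and 13 and 9 for LPS in scramble and in KD.

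Values that did not pass the test turned sign when single libraries were left out, over ranges of -0.19 to 0.05 for CCNB1 in KD without LPS and -5.58 to 0.08 for CCND2 with LPS. For LPS in scramble the ranges were -0.42 to 0.83 for MKI67, -0.20 to 0.35 for FOXM1, -0.64 to 0.69 for RRM2, -0.50 to 0.85 for TYMS, -0.42 to 0.22 for MCM2 and -0.36 to 0.11 for E2F1. For LPS in KD they were -0.12 to 0.32 for CDK1, -0.05 to 0.09 for CCND3, -0.24 to 0.08 for E2F1, -0.12 to 0.09 for RRM2, -0.01 to 0.37 for FOXM1 and -0.05 to 0 for CDK4. The interaction gave 0 called members in every alternative. The cause of these shifts was not tested.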

Other observations

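The partners and antagonists of MYC were read as a list of 10 genes, of which 9 were tested in KD against scramble. Called were 1 higher and 1 lower without LPS, beside 12.1% and 15.1% of all genes. With LPS 2 were higher and 0 lower, beside 12.7% and 14.2% of all genes. MXD3 was higher (0.97 ± 0.30, SE, edgeR adjusted p = 0.031) and MXD4 lower (-0.36 ± 0.10, SE, edgeR adjusted p = 0.023) in KD without LPS, and with LPS MXD1 (0.71 ± 0.14) and MXI1 (0.34 ± 0.11) were higher, with edgeR adjusted p of 0.0014 and 0.042. MXD and MXI1 proteins compete with MYC for its partner MAX, which had -0.20 and -0.10 and was not called. MNT, a further antagonist of MYC, fell with LPS under both shRNAs, from 28.9, 28.9 and 27.9 CPM to 15, 18.1 and 15.2 CPM in scramble (-0.82 ± 0.10, SE, edgeR adjusted p = 0.00025) and from 27.6, 26.2 and 32.4 CPM to 11.6, 13.7 and 14.1 CPM in KD (-1.12 ± 0.13, SE, edgeR adjusted p = 5.2e-05). MYC fell with LPS in the same libraries. MXD1 went the other way, with means of 7.16 CPM without and 11.2 CPM with LPS in scramble, and 9.53 and 18.2 CPM in KD. Of the 9 genes tested, LPS gave 1 called higher and 2 lower in scramble, and 1 higher and 3 lower in KD. Of all genes, 5.9% and 8.38% were so called in scramble and 5.32% and 6.03% in KD. Of the other E2F genes, E2F3 was lower in KD without LPS (-0.31, edgeR adjusted p = 0.039), and E2F7 and E2F8 were not called.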
